A study of Homo sapiens with 8 samples.

Results

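THBS1 and the core of the TGF-β pathway were examined in MDA-MB-231 cells, an established human breast cancer line that lacks the estrogen receptor. The set held 10 of the 17649 genes in the deposited table: the secreted protein THBS1, the ligands TGFB1 and TGFB2, the receptors TGFBR1 and TGFBR2, the signal carriers SMAD2 and SMAD3, the inhibitors SMAD7 and SKIL, and the target gene TGFBI. They were chosen by name, from their place in the pathway, with earlier results of these data known. Among them 9 were found by their symbol and TGFB1 by its Ensembl identifier, ENSG00000105329, which the table gives with the symbol AC011462.1.

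The cells were grown in low glucose medium and exposed for 48 hours to 1 μM carboxymethyllysine (CML), an advanced glycation end product, made by the reaction of sugar derivatives with the amino acid lysine. The control cells received PBS in its place. Each group had 4 libraries of RNA-Seq, numbered 1 to 4, all of this line. The comparison asks which transcripts differed after exposure to CML. The labels do not say that the replicates came from separate cultures, so the p-values below measure the spread between these samples, which may be technical.

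Thrombospondin 1 is a secreted matrix protein that can release TGF-β from the latent form in which it is stored outside cells. Active TGF-β binds the receptor TGFBR2, which recruits and phosphorylates TGFBR1. TGFBR1 then phosphorylates SMAD2 and SMAD3, which enter the nucleus with SMAD4 and act on target genes. SMAD7 blocks TGFBR1 and SKIL represses SMAD complexes, and both are themselves induced by the pathway. THBS1 is also a target of TGF-β, so the group holds its own feedback loops.

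Levels are given in CPM, the reads of a gene divided by the size of its library, as scaled by TMM, a method that corrects library size for a few abundant transcripts. They do not give protein, secretion, receptor activity or SMAD phosphorylation. Most values (88.3% to 89.1% of those examined per library) fell on steps of 1 read, which gave estimated depths of 16161722 to 18954631 reads per library. The 10 genes had between 188 reads, for SMAD7, and 11844 reads, for TGFBR2, in a library. The 6 genes fixed as markers of this line (VIM, CD44, AXL, CAV1, MSN and LGALS1) had mean levels of 152 to 4109 CPM, while of 6 luminal markers ESR1, the estrogen receptor gene, was not analysed here. PGR and FOXA1 were at control means of 0.0285 CPM or below, CDH1 at 0.740, GATA3 at 4.96 and ERBB3 at 7.26 CPM. The summed level of the luminal markers was 12.3 to 14.1 CPM in control and 10.1 to 12.2 CPM in CML libraries, without overlap. The summed level of the leukocyte markers was 1.42 to 3.10 CPM in control and 1.79 to 2.50 CPM in CML libraries, and that of the fibroblast markers 4.08 to 5.47 CPM and 5.67 to 9.99 CPM. The fibroblast sums were thus higher in every CML library. PDGFRB had an estimated 52 to 73 reads in control and 66 to 80 in CML libraries, and LUM 10 to 22 and 18 to 32. COL3A1 was at 0.0151 ± 0.0302 CPM for control and 0.880 ± 1.65 CPM for CML cells (SD, n = 4 each). Of its reads 55 came from CML replicate 3 and at most 2 from any other library. PTPRC, which defines leukocytes, was at means of 0.475 and 0.280 CPM. The part of these traces in any result was not tested. Replicate 4 of both groups stood apart from the other libraries in how levels varied with the GC content of a gene. The slope was taken for the deviation of log2(CPM + 1) from each gene's mean over the 8 libraries. Per 10 percentage points of GC it was -0.0894 in control replicate 4 and -0.0701 in CML replicate 4, against 0.00869 to 0.0728 in the other 6 libraries.

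THBS1 lies on chromosome 15 (GRCh38.p14, positions 39581079 to 39599466, RefSeq). The 250 bases upstream of its start are shown because THBS1 was the member that rose, beside those of CCN2, the target gene of the pathway with the smallest p, on chromosome 6 (gene positions 131948176 to 131951372). Both are written on the strand of the gene, from RefSeq on GRCh38.p14, at chr15:39580829-39581078 (+) and chr6:131951373-131951622 (-). Capitals mark CAGAC, the core of the SMAD binding element, and GGAATG, the core bound by TEAD factors, each searched on both strands.
THBS1: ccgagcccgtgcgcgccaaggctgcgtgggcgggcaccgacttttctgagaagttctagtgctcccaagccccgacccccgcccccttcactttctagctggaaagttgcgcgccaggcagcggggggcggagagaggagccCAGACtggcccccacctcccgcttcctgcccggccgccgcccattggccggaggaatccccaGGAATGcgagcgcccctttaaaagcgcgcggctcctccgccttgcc
CCN2: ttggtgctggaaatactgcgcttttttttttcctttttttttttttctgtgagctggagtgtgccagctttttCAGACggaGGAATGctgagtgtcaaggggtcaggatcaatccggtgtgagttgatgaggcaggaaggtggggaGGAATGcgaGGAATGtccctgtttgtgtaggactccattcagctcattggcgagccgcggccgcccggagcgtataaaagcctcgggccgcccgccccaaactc
THBS1 held 1 CAGAC and 1 GGAATG, and CCN2 held 1 CAGAC and 3 GGAATG. The GGAATG motif was added after the sequences were seen. Some genes have several annotated promoters, and the 10 genes have 25, of which TGFBR1 has 8, so shares are given per promoter and per gene with a match in any promoter. CAGAC was present in 38.0% of all 35116 promoters and 42.8% of all genes, and in 11 of the 25 promoters and 6 of the 10 genes here (THBS1, TGFB2, TGFBR1, SMAD3, SMAD7 and SKIL). GGAATG was present in 11.9% of promoters and 14.3% of genes, and in 3 of the 25, those of THBS1, TGFB2 and TGFBR1. The AP-1 motif TGANTCA was present in 6.57% of promoters and 8.06% of genes, and here in 1 promoter of SMAD3. These matches describe the letters of the windows and nothing about binding in these cells.

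THBS1 rose after exposure to CML, and it was the only one of the 10 genes to pass the test. Its level was 294.9, 310.7, 317.1 and 317.3 CPM in control replicates 1 to 4 and 352.4, 349.6, 350.0 and 354.9 CPM in the CML replicates. Every CML library was above every control library. The means were 310.0 ± 10.5 CPM for control and 351.7 ± 2.46 CPM for CML cells (SD, n = 4 each), a rise of 13.5%. The log2 fold change on the log2(CPM + 1) scale was 0.18 (SE 0.025, 95% interval 0.12 to 0.24, limma adjusted p = 0.098 over all genes). The 2-sided exact permutation test gave p = 0.0286, which is the smallest that 4 against 4 libraries allow. The CML libraries were closer to each other than counting error alone would place them, with a coefficient of variation of 0.698% against at least 1.24% from the number of reads. The control libraries varied by 3.40%. The transcript THBS1-IT1 (AC037198.1), which overlaps THBS1 on the same strand, was listed at 0.650 to 1.56 CPM, and FSIP1 on the opposite strand at 0.321 to 0.731 CPM.

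The rise of THBS1 is read against the whole table. At the false discovery rate of 0.3 that the study used, 119 genes were called higher with CML, which is 0.674% of those tested, and 39 were called lower, 0.221%. Of the 10 genes, 1 was called higher and 0 lower. Because the genes were chosen with earlier results of these data known, this count is not a test of the set. No gene in the table passed an adjusted p of 0.05 in limma, and 1352 had an unadjusted p under 0.05. At this rate about 30% of the calls are expected to be false. The adjusted p of THBS1 rose to 0.340 without CML replicate 2, which ended the call with a log2 fold change of 0.19. At a minimum mean of 1 CPM the adjusted p of THBS1 was 0.0335. The removal of the dependence on GC content and length also used this minimum, and gave 0.00039 (log2 fold change 0.17). Without both replicate 4 libraries the adjusted p was 0.228 (log2 fold change 0.19).

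**Figure D1:**
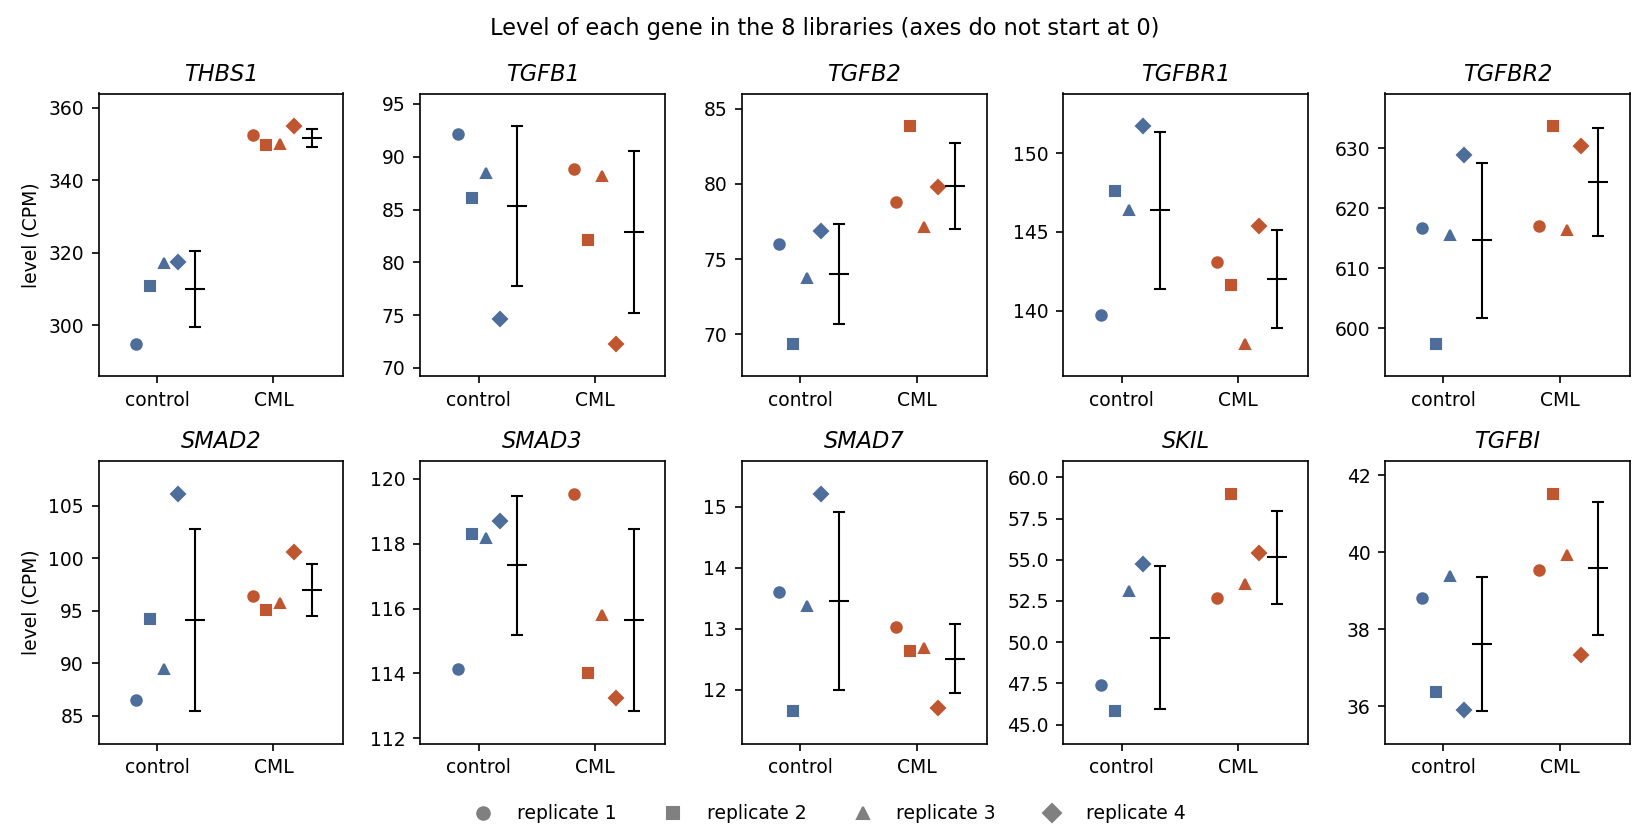
Level of each gene in CPM (vertical axes, which do not start at 0) in the 4 control (blue) and 4 CML (orange) libraries. Symbols mark the replicate number, and the black line and bar give the mean and SD. The groups are apart for THBS1 and TGFB2 and overlap for the other 8 genes.

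The ligands did not pass the test. TGFB1, the most widely expressed of the ligands, lies on chromosome 19 (41330323 to 41353922). Its level was 92.1, 86.1, 88.5 and 74.6 CPM in the control replicates and 88.8, 82.1, 88.2 and 72.3 CPM in the CML replicates. The groups covered nearly the same range, and replicate 4 was the lowest of each. The log2 fold change was -0.042 (SE 0.088, 95% interval -0.25 to 0.17, limma adjusted p = 0.99). Each CML library was below the control library of the same number. With the replicate number as a block in limma the SE was 0.015 (adjusted p = 0.49), and TGFB1 still did not pass. With 64% GC in its longest transcript TGFB1 was the most GC-rich of the 10 genes, and with GC content and length removed its log2 fold change was -0.047 with a smaller SE of 0.037. Its locus overlaps HNRNPUL1 on the opposite strand, which had 307.3 to 338.6 CPM, and whether the counting used strand is not given in the sources used here, so reads of the pair may not be fully told apart.

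TGFB2, a ligand that needs a coreceptor to bind TGFBR2 well, lies on chromosome 1 (218345336 to 218444619). It had 76.0, 69.4, 73.8 and 76.9 CPM in the control replicates and 78.8, 83.8, 77.1 and 79.8 CPM in the CML replicates. The lowest CML library was just above the highest control library. The log2 fold change was 0.11 (SE 0.039, 95% interval 0.017 to 0.20, limma adjusted p = 0.55), so the difference did not pass the adjustment over all genes. Groups without overlap were found for 4.71% of the 9410 genes whose mean reached 10 CPM, and for 2 of the 10 genes here, THBS1 and TGFB2. The reads of TGFB2 were not whole numbers in 7 of 8 libraries, and the overlapping TGFB2-OT1, on the same strand, was listed at 3.86 to 8.94 CPM. When both were added together the groups overlapped, with 80.6 ± 2.87 CPM for control and 86.4 ± 2.21 CPM for CML cells (SD, n = 4, 2-sided exact permutation p = 0.0571).

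The receptors differed less. TGFBR2, the receptor that binds the ligand (chromosome 3, 30606356 to 30694142), had the highest level of the set, also per length, at 616.8, 597.5, 615.5 and 628.8 CPM in control and 617.1, 633.7, 616.4 and 630.3 CPM in CML replicates. The groups overlapped, and the log2 fold change was 0.023 (SE 0.020, 95% interval -0.024 to 0.069, limma adjusted p = 0.90). The interval reached up to a rise of 0.069 on the log2 scale. It measures the spread between these samples, so it sets no limit on the effect of CML. TGFBR1, the receptor that phosphorylates the SMADs (chromosome 9, 99103647 to 99154192), had 139.7, 147.6, 146.4 and 151.7 CPM in control and 143.1, 141.6, 137.9 and 145.4 CPM in CML replicates. Its log2 fold change was -0.043 (SE 0.028, 95% interval -0.11 to 0.023, limma adjusted p = 0.83), and the lowest value belonged to a CML library and the highest to a control library.

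SMAD2 and SMAD3 showed no difference past the test. SMAD2 (chromosome 18, 47808957 to 47930872) had 86.5, 94.2, 89.5 and 106.2 CPM in control and 96.4, 95.1, 95.7 and 100.6 CPM in CML replicates. Control replicate 4 was the highest of all, and the 4 control values spread by 9.19% (coefficient of variation) against 2.56% for CML. The log2 fold change was 0.047 (SE 0.062, 95% interval -0.10 to 0.19, limma adjusted p = 0.96). SMAD3 (chromosome 15, 67065602 to 67195169) had 114.1, 118.3, 118.2 and 118.7 CPM in control and 119.5, 114.0, 115.8 and 113.2 CPM in CML replicates. All but 1 control library lay within 1 CPM of each other, and both the highest and the lowest value were in the CML group. Its log2 fold change was -0.021 (SE 0.021, 95% interval -0.072 to 0.030, limma adjusted p = 0.91), among the narrowest intervals of the set.

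The inhibitors and the target gene had estimates of both signs, and none passed the test. SMAD7, which feeds back on TGFBR1 (chromosome 18, 48919853 to 48950965), had the fewest reads of the set, with 13.6, 11.6, 13.4 and 15.2 CPM in control and 13.0, 12.6, 12.7 and 11.7 CPM in CML replicates. Its log2 fold change was -0.093 (SE 0.078, 95% interval -0.28 to 0.092, limma adjusted p = 0.90). The estimate was -0.16 to -0.036 without 1 library and -0.0069 without both replicate 4 libraries. SKIL, also called SnoN (chromosome 3, 170357715 to 170396849), had 47.4, 45.8, 53.1 and 54.8 CPM in control and 52.7, 59.0, 53.5 and 55.4 CPM in CML replicates. The groups overlapped, with a log2 fold change of 0.13 (SE 0.066, 95% interval -0.023 to 0.29, limma adjusted p = 0.73). TGFBI, a secreted matrix protein induced by TGF-β (chromosome 5, 136028988 to 136063818), had 38.8, 36.4, 39.4 and 35.9 CPM in control and 39.5, 41.5, 39.9 and 37.3 CPM in CML replicates. Its log2 fold change was 0.072 (SE 0.043, 95% interval -0.030 to 0.17, limma adjusted p = 0.80).

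**Figure D2:**
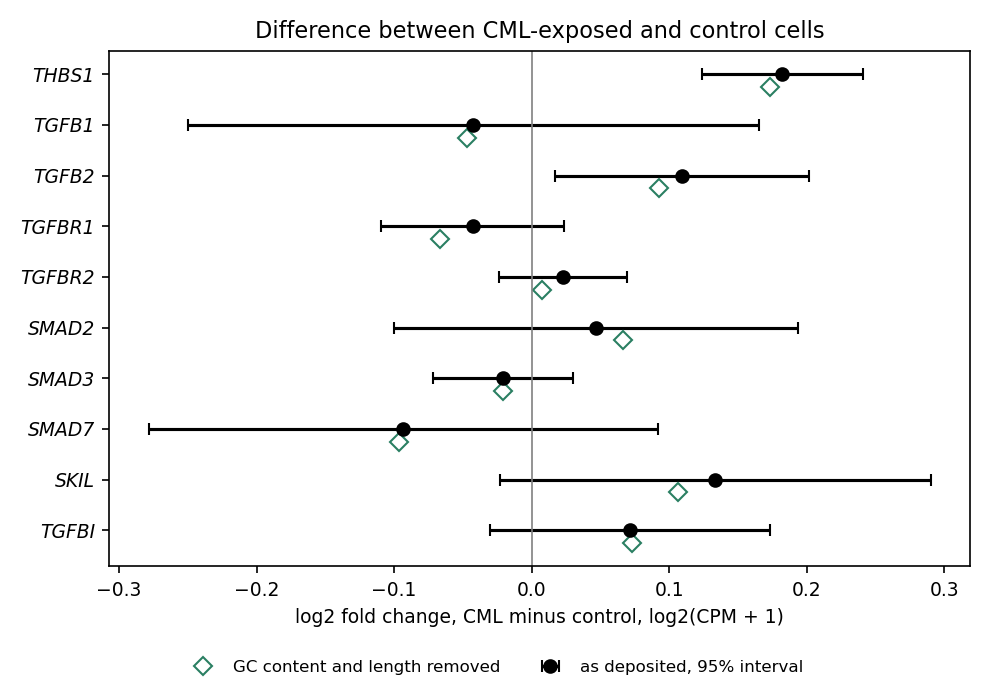
Log2 fold change of each gene, CML minus control, on the log2(CPM + 1) scale (horizontal axis). Black points and bars give the limma estimate and its 95% interval from 4 libraries per group, and open diamonds give the estimate with GC content and length removed. THBS1, at 0.18, and TGFB2, at 0.11, are the genes whose interval lies above 0.

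The values of the single libraries were set beside their GC content. On the log2(CPM + 1) scale TGFB1 deviated from its own mean by -0.166 in control replicate 4 and by -0.21 in CML replicate 4, and by -0.0291 to 0.135 in the other 6. SMAD2, with 40% GC, deviated by 0.153 and 0.0763 in the same libraries. SMAD7, with 57% GC, did not follow this order, at 0.218 in control replicate 4 and -0.135 in CML replicate 4. THBS1 was below its mean in all 4 control libraries and above it in all 4 CML libraries, by 0.0825 to 0.104.

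**Figure D3:**
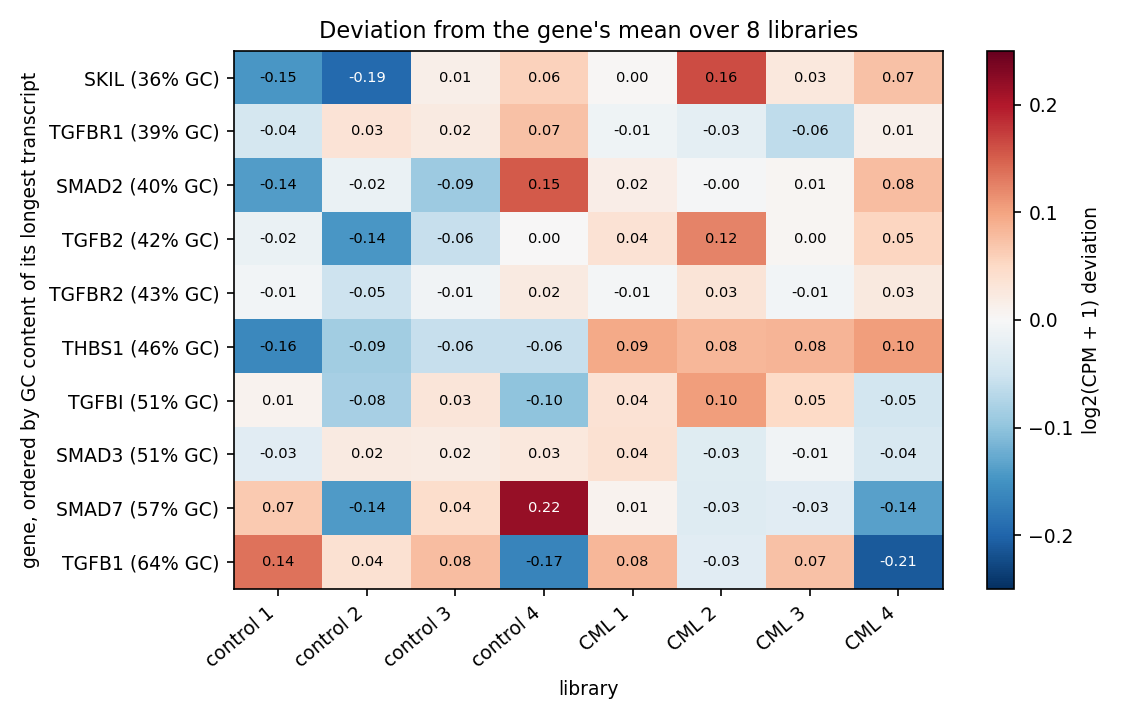
Deviation of each gene from its own mean over the 8 libraries, in log2(CPM + 1), by library (columns) and gene (rows, ordered by the GC content of the longest transcript). Red is above and blue below the mean. TGFB1 is lowest in replicate 4 of both groups, while the sign of THBS1 follows the group.

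Ratios between genes of the same step were compared, since they do not depend on the scaling of a library. The ratio of TGFB1 to TGFB2 was 1.21, 1.24, 1.20 and 0.970 in control and 1.13, 0.980, 1.14 and 0.906 in CML replicates, a log2 difference of -0.15. The ratio of TGFBR2 to TGFBR1 was 4.41, 4.05, 4.20 and 4.14 in control and 4.31, 4.47, 4.47 and 4.34 in CML replicates, a log2 difference of 0.066. The ratio of SMAD3 to SMAD2 was 1.32, 1.26, 1.32 and 1.12 in control and 1.24, 1.20, 1.21 and 1.13 in CML replicates, a log2 difference of -0.068. The groups overlapped for all 3 ratios. The 2-sided exact permutation tests gave p = 0.2, 0.0857 and 0.343, or 0.3, 0.257 and 0.343 after adjustment over the 3 ratios, none under 0.05, the level set for these single tests. With GC content and length removed the adjusted p of each ratio was 0.0857.

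Between genes, levels can be compared only per length of transcript. In control cells TGFBR2 had 89.7 ± 1.89 CPM per kb of exon (SD, n = 4), THBS1 33.9 ± 1.15, TGFB1 26.1 ± 2.32, TGFBR1 18.3 ± 0.623, TGFB2 12.2 ± 0.552 and SMAD3 11.7 ± 0.214. SKIL followed at 6.19 ± 0.533, TGFBI at 4.87 ± 0.225, SMAD7 at 3.41 ± 0.370 and SMAD2 at 2.58 ± 0.237 CPM per kb. The neighbours TGFB2 and SMAD3 differed by less than the SD of TGFB2, and the other neighbours differed by more than the larger of their SDs. By the length of the longest transcript SMAD3, at 18.2 CPM per kb, stood above TGFB2, at 12.6, and TGFBI, at 8.07, above SKIL, at 6.68. By exon length the order was the same in CML cells, with THBS1 at 38.4 ± 0.268 CPM per kb. The low place of SMAD2 rests on its annotated exons, which cover 36.4 kb because 1 transcript is 34.6 kb long.

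**Figure D4:**
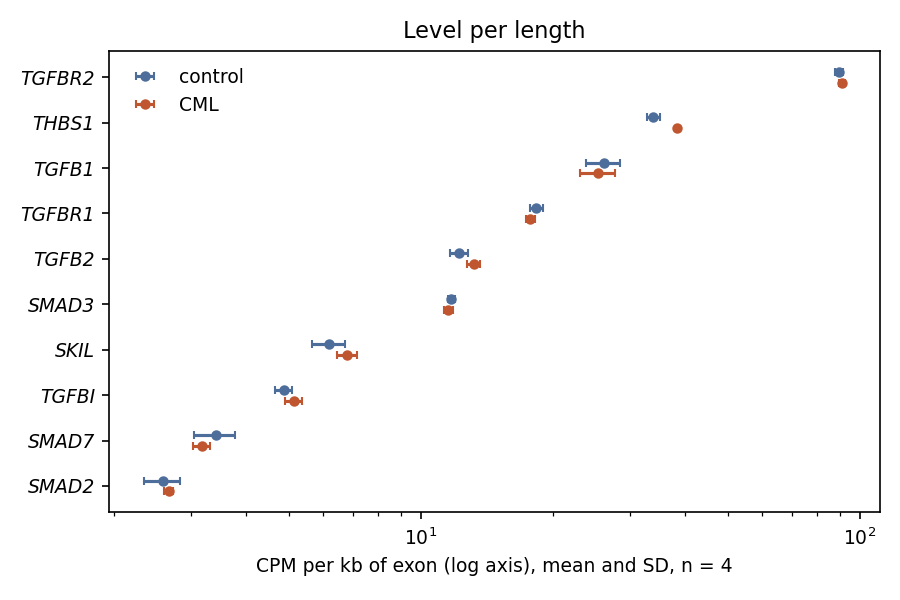
Level of each gene per kb of annotated exon (horizontal log axis, CPM per kb, mean and SD of 4 libraries) in control and CML cells. TGFBR2 is highest and SMAD2 lowest in both groups.

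The genes around the set were counted from lists of the pathway, also chosen with earlier results of these data known. Of 107 listed genes with a row, 3 were called higher (FST, CCN2 and BHLHE40) and 1 lower (THBS3), beside the shares of the whole table above, and their median log2 fold change was 0.029 against 0.0066 over all genes. Among the genes whose mean reached 1 CPM the medians were 0.033 for the lists and 0.015 for all genes. The 10 genes, all of which reached this mean, had a median of 0.035. Among 32 target genes 2 rose. CCN2, a matricellular growth factor that TGF-β and YAP induce, had 259.9, 260.1, 254.9 and 267.6 CPM in control and 296.4, 293.9, 302.3 and 300.6 CPM in CML replicates. The log2 fold change was 0.19 (SE 0.018, limma adjusted p = 0.060), and the size was close to that of THBS1. BHLHE40, a transcription factor, rose by a log2 fold change of 0.095 (SE 0.018, limma adjusted p = 0.23).

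Among 21 negative regulators FST rose. FST, whose protein follistatin binds activins, had 114.0, 115.1, 122.1 and 123.9 CPM in control and 130.8, 136.6, 129.5 and 135.3 CPM in CML replicates, with a log2 fold change of 0.16 (SE 0.033, limma adjusted p = 0.26). NEDD4L, a ubiquitin ligase for SMADs, had a log2 fold change of 0.091 (adjusted p = 0.55), and FKBP1A, which holds TGFBR1 inactive, one of 0.0050 (adjusted p = 1.0). Among 6 other thrombospondins and thrombospondin receptors THBS3 fell. It had 19.7, 20.3, 22.4 and 20.9 CPM in control and 17.0, 17.9, 18.0 and 17.7 CPM in CML replicates, a log2 fold change of -0.22 (SE 0.043, limma adjusted p = 0.24), and it overlaps MTX1 on the opposite strand. THBS1 and THBS3 thus had opposite signs. CD47, a receptor of THBS1, had a log2 fold change of 0.019 (adjusted p = 0.99). Without both replicate 4 libraries CCN2 and FST passed again, with SMURF2 and PLAU, while BHLHE40 (log2 fold change 0.10, adjusted p = 0.302) and THBS3 (-0.22, adjusted p = 0.354) did not. With the replicate number as a block FST (adjusted p = 0.356) and BHLHE40 (adjusted p = 0.323) did not pass.

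No gene of the other lists passed the test, while with GC content and length removed PLAU (adjusted p = 0.067) and ITGB5 (adjusted p = 0.18) were higher and LTBP1 (adjusted p = 0.28) lower. Of 18 measured genes of the latent complex and its activation, PLAU, the urokinase protease, had a log2 fold change of 0.13 (limma adjusted p = 0.38) and ITGB3, an integrin subunit, 0.19 (adjusted p = 0.55), and MMP14, a membrane protease, was the highest per kb at 0.025 (adjusted p = 0.99). Of 9 other ligands INHBB and INHBA, both activin subunits, had log2 fold changes of 0.20 (adjusted p = 0.58) and 0.15 (adjusted p = 0.85), and GDF15 was the highest per kb at 0.0089 (adjusted p = 1.0). Of 10 other receptors BMPR1B had a log2 fold change of 0.18 (adjusted p = 0.70), the coreceptor TGFBR3 one of -0.16 (adjusted p = 0.75) and BMPR2 one of -0.021 (adjusted p = 1.0). Of 11 other SMADs and cofactors RUNX2 had a log2 fold change of -0.082 (adjusted p = 0.87) and EP300 one of -0.039 (adjusted p = 0.91).

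**Figure D5:**
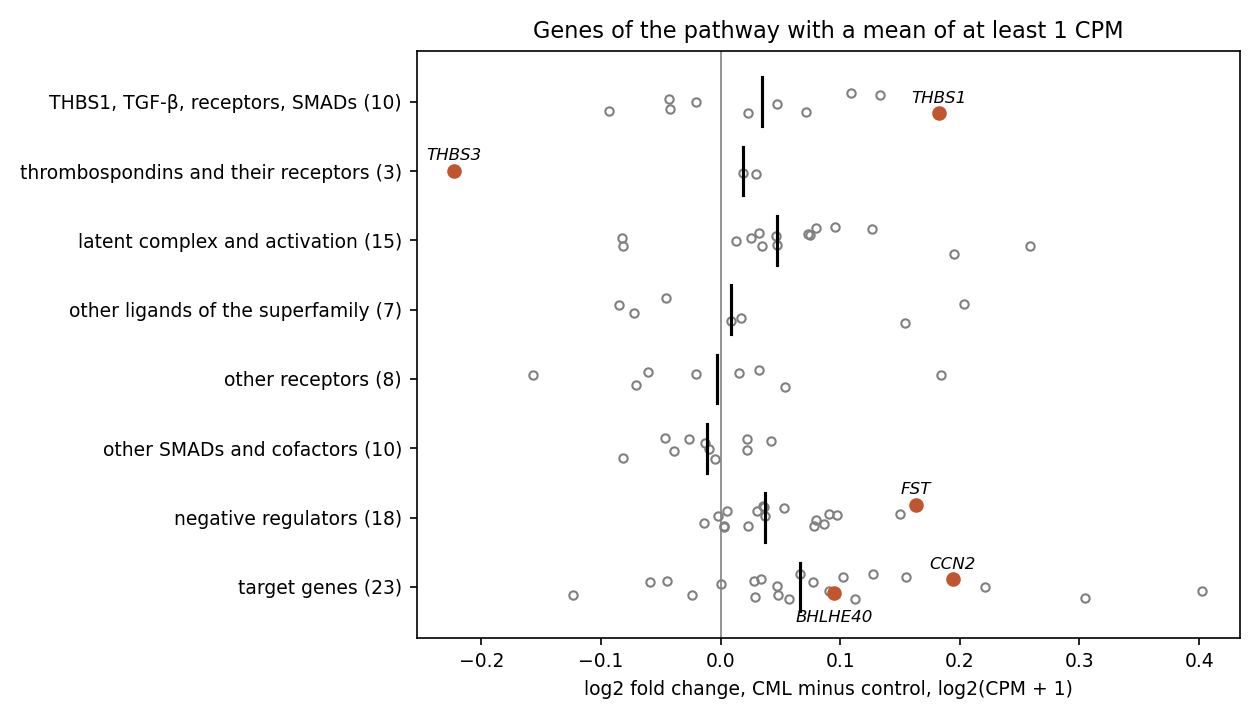
Log2 fold change, CML minus control, on the log2(CPM + 1) scale (horizontal axis) of each list's genes whose mean reached 1 CPM, their number in brackets. Filled points passed an adjusted p of 0.3, and black lines are medians. Most genes lie between -0.2 and 0.2, and 5 passed, of which THBS3 is the one below 0.

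The profile of THBS1 over the 8 libraries was compared with that of the 9409 other genes whose mean reached 10 CPM. The measure was the root mean square difference of log2(CPM + 1) after each gene was centred on its mean. The 3 nearest were BAG4, at 0.0158, ANKRD1, at 0.0255, and HBEGF, at 0.0290. BAG4, a cochaperone, was at 18.5 ± 0.629 CPM in control and 20.8 ± 0.331 CPM (SD, n = 4 each) in CML cells. ANKRD1, a nuclear ankyrin repeat protein, was at 586.7 to 624.6 CPM in control and 676.3 to 703.9 CPM in CML libraries. HBEGF, a growth factor of the EGF family, was at 174.1 ± 5.35 and 197.2 ± 3.32 CPM (SD, n = 4 each). All were lower in each control library than in every CML library, which follows from the way they were chosen.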

How the data were processed

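RNA was measured in 4 control and 4 CML libraries, grouped by their titles. The authors deposited CPM values, scaled by TMM factors of edgeR per the submitters' processing notes, with genome build hg38. The study's methods describe trimming with Trimmomatic and alignment with Tophat to hg19 for its tumors, which may not cover these libraries, and for them the aligner and the counter are not given in the sources used here. Also, NextSeq and HiSeq are both named as the instrument. Of the values up to 5000 reads, 88.3% to 89.1% were whole reads within 0.1 read, so the counts behind them are estimates and no count test was run.

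Rows with the same symbol were averaged, which left 17649 genes from 17681 rows. The groups were compared on log2(CPM + 1) in R 4.3.3 by limma 3.58.1, using a variance trend, with p-values adjusted by Benjamini-Hochberg over the whole table, at an FDR of 0.3, and by the exact permutation test over 70 labellings. The limma fit was tested on simulated data. Exon lengths and GC content came from GENCODE release 44. For GC and length, splines with 5 degrees of freedom were removed per library. Of 12 pairs of libraries within a group, none agreed within sampling noise (chi-square per gene 1.73 to 10.1 over 11123 genes). Besides the 10 genes, the text names in each list the genes called, the 2 with the smallest p among those whose mean reached 1 CPM, and the highest per kb, and the 3 genes nearest THBS1. SMURF2, ITGB5 and LTBP1 were named after their values were seen. The values of 1 target gene under this rule are not reported here. The genes and lists were chosen with earlier results of these data known. Separate rows, a pseudocount of 0.1, a filter at a mean of 1 CPM, median centring, quantile normalization, no trend, the replicate block, GC and length removal, and each library left out were tried as alternatives. Leaving out both replicate 4 libraries was chosen after seeing the data. Figures were drawn with matplotlib in Python.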

Additional observations from a re-analysis of the deposited data

Results flagged for a closer look

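SMAD3 in control replicate 1 was the only library far from its group for the 10 genes, at 114.1 CPM against 118.2 to 118.7 CPM in the other 3 control libraries, a gap of 0.882 of the range. Chance flags about 1 in 20 groups, and 20 groups were examined.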

How the results depend on the processing

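The direction of THBS1 held in all 18 alternatives and its call in 17 of them. With all libraries the log2 fold change was 0.15 to 0.18 and the adjusted p 0.00039 to 0.263 over 9 alternatives, 0.263 being the value with the replicate block. Leaving out 1 library gave 0.16 to 0.19, with limma adjusted p of 0.075 to 0.340. Without CML replicate 2 (0.19, adjusted p = 0.340) the call was lost, so that 0 to 1 of the 10 genes were called higher. The adjusted p was close to 0.3 without control replicate 2 (0.291) and without CML replicate 3 (0.285). None of the other 9 genes was called in any of 162 values, and 1 of these changed sign, that of TGFB1, whose log2 fold change was -0.10 to 0.021 without 1 library and above 0 without CML replicate 4. For the ratios, leaving out 1 library gave log2 differences of -0.24 to -0.09 for TGFB1 to TGFB2, 0.05 to 0.09 for TGFBR2 to TGFBR1 and -0.12 to -0.04 for SMAD3 to SMAD2, with adjusted p of 0.0857 or more, none under 0.05. Exchanging labels only within replicate numbers can give no p below 0.125, and the 3 ratios had adjusted p = 0.25 under this replicate block.

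Over all genes 158 were called, 141 at a minimum mean of 1 CPM and 73 after median centring. With GC content and length removed, at the same minimum mean, 748 were called, and 851 with the replicate block added. Without both replicate 4 libraries 321 were called. Leaving out 1 library gave 20 to 690, lowest without CML replicate 2 and highest without control replicate 4. Of the pathway lists 3 were higher and 1 lower. The higher count was 1 after median centring and with the replicate block, 9 with GC content and length removed, 10 with the block added, and 1 to 6 without 1 library. The lower count was 0 at a minimum mean of 1 CPM, after centring and without both replicate 4 libraries, 3 with GC content and length removed with or without the block, and 0 to 1 without 1 library. The cause was not tested.

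The replicate numbers paired the libraries only in part. Correlations of same-numbered deviations were -0.0645 to 0.334 (mean 0.11), with 2 of 4 over 0.1. Those of differently numbered libraries were -0.304 to 0.113 (mean -0.0362), with 1 over 0.1. By the longest transcript the levels per kb in control were 39.8 CPM for THBS1, 30.7 for TGFB1, 22.5 for TGFBR1, 106.1 for TGFBR2, 18.2 for SMAD3, 4.03 for SMAD7 and 8.07 for TGFBI, which places SMAD3 above TGFB2 and TGFBI above SKIL. Depth limits SMAD7 most, with a counting error of 6.12% to 7.29% per library.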
